A study of Mus musculus with 6 samples.

Results

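Mouse chromosome 5 is described here through its accessible regions, the stretches of open chromatin that ATAC-seq found on it. Every region that the table places on chromosome 5 was taken when its mean over the 6 libraries was at least 10 normalised reads, which gave 3027 of the 51253 regions that pass this limit over all chromosomes. A further 84 chromosome 5 regions lay under the limit, so that 3027 of 3111 were kept. The cells were NIH3T3 fibroblasts, a mouse line that grows without limit and does not keep the normal chromosome number. The active group carried an active T3H48 hammerhead ribozyme, an RNA that cuts itself, knocked into intron 3 of Actg1, which encodes gamma-actin of the cytoplasm. The inactive group carried an inactive T3H48 ribozyme at the same place, and both groups were stable, genotyped lines with 3 libraries each. Whether replicate libraries stem from different cultures or clones is not stated in the labels, so p-values reflect only library-to-library spread, which may be technical. Ribozyme activity and line identity cannot be told apart in this design.

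Chromosome 5 was chosen because its regions were known to be higher in the active line. Its overall shift, the counts along it and the stretch from 80 to 90 Mb are therefore given as descriptions, with no test. A region called higher or lower in the plain comparison is likewise a description, since it shares the contrast behind the choice. A region with a mean under 10 in either line passed the limit only through the other line, which partly sets its gap. Of the regions closest to the limit, the last 3 inside it had means of 11, 7.67 and 6.67 in the active line, against 9, 12.3 and 13.3 in the inactive line, and the first 3 outside it had means of 13, 15.7 and 10.3 in the active line, against 6.67, 4 and 9.33 in the inactive line.

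In ATAC-seq the transposase Tn5 inserts sequencing adapters where DNA is not wrapped tightly in nucleosomes, and the reads over a region report how open it was. Promoters of genes in use are open in most cell types, whereas enhancers and other distal elements open and close with the state and history of a cell. Read totals over a region also scale with how many copies of that DNA a cell carries, which was not measured, so copies and openness cannot be told apart here.

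The 735 promoter regions of chromosome 5, those centred within 1 kb of an annotated transcription start site, made up 24.3% of its regions. Another 493 (16.3%) were annotated to a gene from farther away, and 1799 (59.4%) had no annotated gene. Of the regions without an annotated gene, 775 (43.1%) lay inside the body of a gene that the table names elsewhere, and 1024 (56.9%) lay between such genes. The sequences below show promoters of some of the genes with local departures, described later. They are the 3 named promoters in each direction that departed most from their neighbourhood, among those whose region covers the start site and that have a single entry in the RefSeq table. Of the 24 named genes, 21 had an entry. Sod3, Tmem184a and Pitpnm2 departed farther downward than Gtf2ird1 and Scfd2 but are not shown, Sod3 for lack of an entry. Each sequence is the 250 bases before the start site, 5′ to 3′, from RefSeq on build GRCm38.p6. The ATAC-seq regions, in contrast, are on build mm39, so their coordinates are not on the same scale. Capitals mark matches on either strand to the GC box (GGGCGG), the CCAAT box (CCAAT) or the AP-1 motif (TGANTCA), with overlapping matches counted separately. The first 3 belong to promoters that were higher in the active line, and the others to promoters that were lower.

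Cacna2d1 (chr5:15934441-15934690, plus strand): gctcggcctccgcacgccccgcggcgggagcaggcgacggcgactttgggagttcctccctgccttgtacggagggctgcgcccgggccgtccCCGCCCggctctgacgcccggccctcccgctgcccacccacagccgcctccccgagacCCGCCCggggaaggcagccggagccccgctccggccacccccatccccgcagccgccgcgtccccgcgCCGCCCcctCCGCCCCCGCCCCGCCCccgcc

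Baiap2l1 (chr5:144358113-144358362, minus strand): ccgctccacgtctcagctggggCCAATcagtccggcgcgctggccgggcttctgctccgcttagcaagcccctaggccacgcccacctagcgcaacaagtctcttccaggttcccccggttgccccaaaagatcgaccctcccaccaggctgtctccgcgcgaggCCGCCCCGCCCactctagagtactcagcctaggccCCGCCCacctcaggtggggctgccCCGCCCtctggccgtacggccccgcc

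Trim54 (chr5:31116362-31116611, plus strand): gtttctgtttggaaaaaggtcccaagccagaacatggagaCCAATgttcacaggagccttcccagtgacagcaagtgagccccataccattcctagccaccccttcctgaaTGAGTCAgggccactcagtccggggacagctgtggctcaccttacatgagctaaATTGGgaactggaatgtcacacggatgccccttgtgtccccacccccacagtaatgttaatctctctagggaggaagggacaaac

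Stag3 (chr5:138280259-138280508, plus strand): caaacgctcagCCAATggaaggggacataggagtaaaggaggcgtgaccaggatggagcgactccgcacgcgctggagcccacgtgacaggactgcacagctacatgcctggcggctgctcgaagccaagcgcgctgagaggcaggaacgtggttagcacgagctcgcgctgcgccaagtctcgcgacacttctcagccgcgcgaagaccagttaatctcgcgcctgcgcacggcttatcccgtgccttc

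Gtf2ird1 (chr5:134456717-134456966, minus strand): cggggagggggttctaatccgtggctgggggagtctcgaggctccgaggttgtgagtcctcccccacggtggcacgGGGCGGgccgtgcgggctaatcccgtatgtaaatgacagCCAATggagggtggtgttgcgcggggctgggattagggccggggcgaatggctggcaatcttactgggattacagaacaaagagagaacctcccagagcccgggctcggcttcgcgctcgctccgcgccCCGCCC

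Scfd2 (chr5:74531743-74531992, minus strand): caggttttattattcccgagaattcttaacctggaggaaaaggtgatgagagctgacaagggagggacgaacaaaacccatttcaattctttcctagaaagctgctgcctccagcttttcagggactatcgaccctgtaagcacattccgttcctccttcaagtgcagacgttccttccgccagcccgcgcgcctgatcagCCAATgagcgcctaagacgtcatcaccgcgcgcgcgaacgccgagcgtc

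These promoters differed in base composition in both directions of change. The Cacna2d1 promoter held 82.4% G and C, 36 CpG dinucleotides and 6 GC boxes. The Trim54 promoter held 52.8% G and C with 2 CpG dinucleotides, 2 CCAAT boxes and the AP-1 motif. The median over the 32851 promoters of the table was 52.4% G and C with 6 CpG dinucleotides. Baiap2l1 had 4 GC boxes and Gtf2ird1 had 2, while Stag3 and Scfd2 had none. A GC box was present in 32.7% of all promoters of this length, a CCAAT box in 33.8% and an AP-1 motif in 6.75%. The TATA box (TATAAA, in 12.4% of promoters) and the ETS motif (CCGGAA, in 12% of promoters) did not match in any of the 6. A match is a description of letters and not a site of binding.

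Levels below are normalised reads per region, that is, reads that the authors brought to a common scale between libraries and rounded. Log2 fold changes are for active against inactive on the log2(value + 1) scale, which understates the change of low regions. A region was called higher or lower when its adjusted p in limma, a linear model fitted to all 51253 regions with Benjamini-Hochberg adjustment, was under 0.05. The 6 libraries held 6433944 to 6548535 normalised reads each. Estimates of the reads before scaling were 5350000, 3710000 and 6840000 for the active libraries and 8960000, 8390000 and 7330000 for the inactive ones. All 3 active libraries were shallower than all 3 inactive ones, and what part this has in any difference below was not tested. As a check of the cell type, 8 of 10 fibroblast markers, Col1a1, Fn1 and Vim among them, had an accessible promoter, with means of 34.3 to 669 in the active line, against 29.7 to 986 in the inactive line. Of the epithelial markers 1 of 4 had one (Krt8, at 147 in the active line, against 85 in the inactive line), and none of the 4 blood or 3 pluripotency markers had one.

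Chromosome 5 gave more normalised reads in the active line than in the inactive line along nearly its whole length. Its regions took 7.31%, 7.37% and 7.33% of all normalised reads in the active line, against 5.93%, 5.95% and 5.94% in the inactive line. The groups did not overlap, and the means stood far apart relative to the spread, at 7.34 ± 0.0286% in the active line, against 5.94 ± 0.0129% in the inactive line (SD, n = 3 each). The median region stood at 82, 81 and 83 normalised reads in the active line, against 62, 63 and 63 in the inactive line. The median log2 fold change was 0.29, against -0.02 over all regions and -0.05 over the other chromosomes, with the 5th percentile at -0.79 and the 95th at 1.99.

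Of the 3027 regions, 1617 (53.4%) were higher in the active line, where 30.9% of all regions in the table were, and 302 (9.98%) were lower, where 29.2% of all regions were. The other 1108 did not pass. Changes of at least 2-fold upward numbered 528 (17.4%, against 13.4% of all regions), and those downward 109 (3.6%, against 6.86%). All active libraries lay above all inactive ones in 1636 regions (54%, against 31.8% of all regions) and below them in 315 (10.4%, against 30.5%). Since the chromosome was picked for this shift, these shares are read no further. Chromosome 5 was not alone: the median was 0.50 on chromosome 12, 0.33 on chromosome 13, 0.31 on chromosome 6 and 0.27 on chromosome 15.

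Promoters differed by a small, even amount, and regions away from promoters by a larger and more scattered one. Promoter regions had a median log2 fold change of 0.24 with an interquartile range of 0.28, and 434 of 735 (59%, against 22.4% of all promoters in the table) were higher, 42 (5.71%, against 36.6%) lower and 37 (5.03%, against 4.09%) higher by at least 2-fold. The 2292 regions outside promoters had a median of 0.33 with an interquartile range of 0.93, and 1183 (51.6%, against 33.2% of such regions in the table) were higher, 260 (11.3%, against 27.1%) lower and 491 (21.4%, against 16%) higher by at least 2-fold. Promoters on the other chromosomes had a median of -0.12 and an interquartile range of 0.42, and regions outside promoters there a median of 0.00 and an interquartile range of 1.01.

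The class of a region went together with its width and level: promoter regions had a median width of 839 bp and a median of 238.5 normalised reads per region, against 412 bp and 51 normalised reads outside promoters. When the chromosome 5 regions were divided by level into 3 equal classes, the class of the highest levels held 537 promoters, which had a median of 0.25 and an interquartile range of 0.23, with 68.2% called higher. The 472 other regions of that class had a median of 0.27 and an interquartile range of 0.45, with 63.3% called higher. In the class of middle levels the medians lay farther apart, at 0.16 for 124 promoters and 0.36 for 885 other regions, with interquartile ranges of 0.52 and 0.90. In the class of the lowest levels, 74 promoters had a median of 0.29 and an interquartile range of 1.10, and 935 other regions a median of 0.38 and an interquartile range of 1.40. The scatter was wider outside promoters in all 3 classes, while the medians were close in the highest class alone. Among regions without an annotated gene, those between genes had a median of 0.40 and those inside a gene body 0.33.

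**Figure D1:**
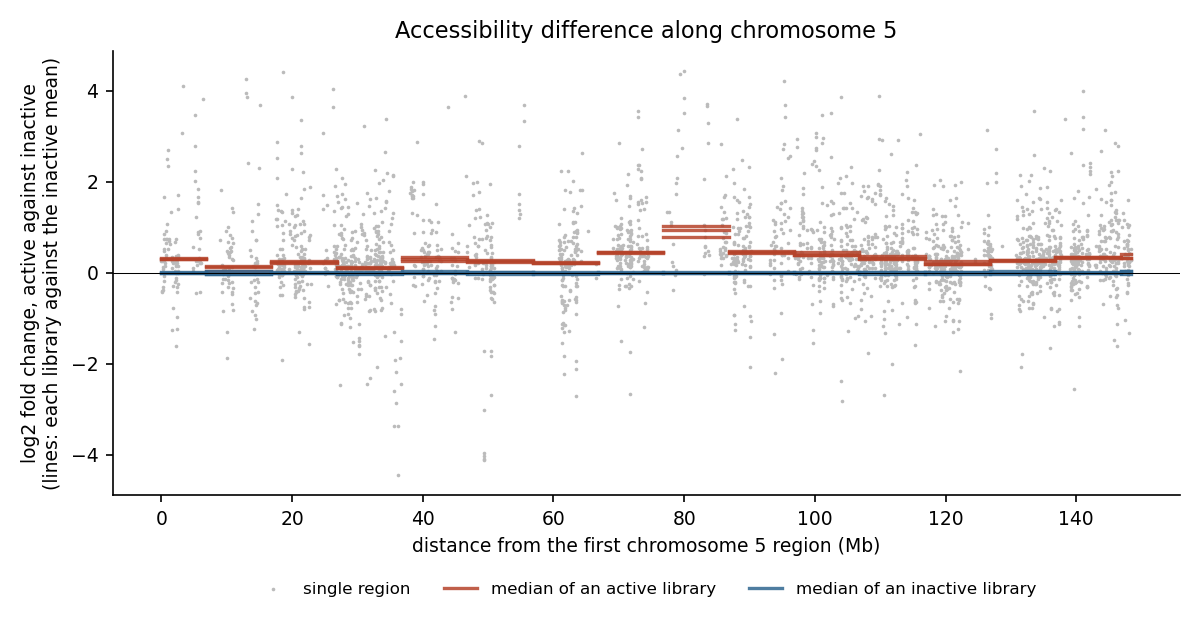
Log2 fold change of each of the 3027 chromosome 5 regions (grey points, active against inactive) by its distance in Mb from the first region, with the median of each 10 Mb window for every library against the inactive mean (lines). The active lines lie above 0 in all windows and are highest in the window from 80 to 90 Mb, where they stand between 0.78 and 1.03, while the inactive lines stay near 0.

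Along the chromosome the median difference never turned negative but changed in size. In 10 Mb windows the median log2 fold change ran from 0.12 (30 to 40 Mb) to 0.89 (80 to 90 Mb) and was above 0 in all 16 windows. Every active library's median lay above every inactive one's in 15 of the 16. The exception was the window from 10 to 20 Mb, with 0.14, 0.03 and 0.15 in the active libraries and 0.05, -0.02 and -0.02 in the inactive libraries. Promoter medians ran from 0.03 to 0.40 and medians outside promoters from 0.13 to 1.06, and the median outside promoters was the larger one in 15 of 16 windows, all but that from 120 to 130 Mb (0.18 outside promoters and 0.22 at promoters). Over the 16 windows the medians of both classes ranked alike, with a Spearman rho of 0.82, as a description of windows that share the same 6 libraries. In windows of 5 Mb the median log2 fold change had a rho of -0.25 with the number of regions in the window.

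**Figure D2:**
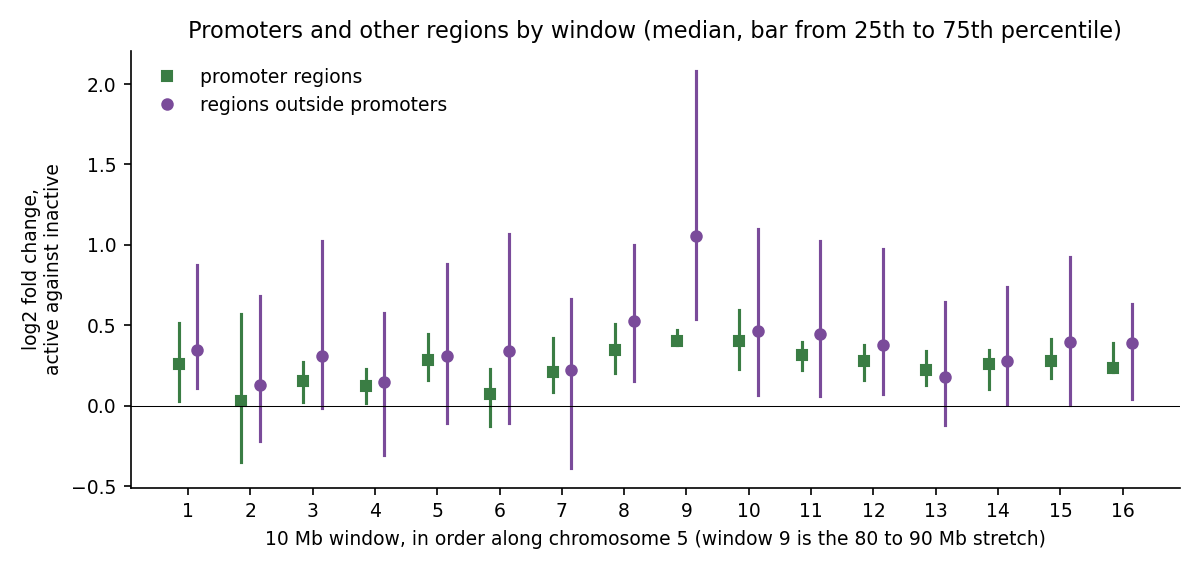
Median log2 fold change (active against inactive) of promoter regions (squares) and of regions outside promoters (circles) in the 16 windows of 10 Mb along chromosome 5, with bars from the 25th to the 75th percentile. The bars outside promoters are wider in 15 of 16 windows, and window 9, from 80 to 90 Mb, has the highest median outside promoters, 1.06, beside a promoter median of 0.40.

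Binary segmentation, which places borders where the level of the log2 fold change steps, divided the chromosome into 4 parts. The proximal part, 3.2 to 30.2 Mb, had a median of 0.23 over 391 regions. The next, 30.3 to 66.7 Mb, had the lowest median, 0.17 over 699 regions, with 41.1% of regions higher and 16.7% lower. From 66.7 to 106 Mb the median was 0.49 over 562 regions, with 67.8% higher and 5.34% lower, and it was similar in each active library (0.52, 0.53 and 0.48). The distal part, 106 to 152 Mb, had a median of 0.29 over 1375 regions. The step at 66.7 Mb was placed at the same region, which starts at 66707436, when each active library was segmented against the inactive mean. The runs share that reference, so a step in the inactive libraries would appear in each of them. The other borders varied between the runs: that at 30.3 Mb was found in active libraries 1 and 3 only, and the distal one lay between 105802421 and 107264783. Promoters took part in the step, with medians of 0.14 from 30.3 to 66.7 Mb and 0.37 from 66.7 to 106 Mb.

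The stretch from 80 to 90 Mb held the largest median difference of the 16 windows of 10 Mb. None of its regions was called lower, where 29.2% of all regions were. Its 63 regions summed to 10078, 10043 and 9955 normalised reads in the active line, against 6419, 6232 and 6348 in the inactive line. That is 10025 ± 63.4 in the active line, against 6333 ± 94.4 in the inactive line (SD, n = 3 each), a ratio of 1.58, with no overlap between the groups. Of the 63 regions, 54 (85.7%, against 30.9% of all regions) were called higher. In as many, all active libraries lay above all inactive ones, as they did in 31.8% of all regions. The change was carried unevenly. The 10 promoters in the stretch were all higher, where 22.4% of all promoters in the table were. Their median log2 fold change was 0.40, close to the promoter median of 0.40 in the neighbouring window from 90 to 100 Mb. The 53 regions outside promoters had a median of 1.06 and a summed ratio of 1.89, against 1.33 for the promoters.

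The regions lay in 3 groups separated by gaps of more than 1 Mb without any. From 80.5 to 83.2 Mb there were 20 regions and no promoter, the median log2 fold change was 1.54, and the sum was 1551 ± 17.5 in the active line, against 752 ± 57.6 in the inactive line. The only annotated gene there was Adgrl3, an adhesion receptor of the latrophilin family, whose region 1440 bp from the start site stood at 183, 184 and 165 in the active line, against 80, 79 and 96 in the inactive line (log2 fold change 1.06). Of the 20 regions, 15 were called higher, where 30.9% of all regions were. The others lay in or just beyond the Adgrl3 gene body, with log2 fold changes of -0.37 to 0.25. The distal end of this group, beyond the Adgrl3 gene body, held 8 regions in succession, from 82094186 to 83202922, that were low in the inactive line. They summed to 354 ± 29.9 in the active line, against 38.3 ± 2.89 in the inactive line. The region at 82509488 stood at 51, 39 and 63 in the active line, against 4, 2 and 0 in the inactive line, and that at 83107030 at 27, 27 and 25 in the active line, against 0, 1 and 0 in the inactive line. Both regions, like most of the 8, had inactive means under 10. They passed the limit only through the active line, which partly sets the gap. The nearest gene of the table, Adgrl3, ended 536.7 and 1134.2 kb away from these regions.

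From 86.2 to 87.0 Mb 15 regions summed to 3131 ± 11.1 in the active line, against 2078 ± 33.3 in the inactive line, and from 88.7 to 89.6 Mb 28 regions summed to 5344 ± 52 in the active line, against 3504 ± 42 in the inactive line. Most of the named promoters there changed by small, like amounts. Cenpc1, an inner kinetochore protein, had 754, 726 and 664 at its promoter in the active line, against 524, 551 and 575 in the inactive line. Uba6, a ubiquitin-activating enzyme, had 631, 753 and 744 in the active line, against 546, 495 and 519 in the inactive line. Dck, the kinase that salvages deoxycytidine, had 733, 767 and 750 in the active line, against 599, 615 and 586 in the inactive line. The groups were apart at all 3, with log2 fold changes of 0.38, 0.44 and 0.32.

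Ythdc1, a nuclear reader of methylated adenosine in RNA (0.40), Utp3, a ribosome biogenesis factor (0.41), Rufy3 (0.48) and Grsf1, an RNA-binding protein of mitochondria (0.39), lay in the same narrow range of log2 fold change. Mob1b, a co-activator of Hippo pathway kinases, had the smallest change, 0.18, and was not called without trend and robust settings (adjusted p = 0.128) or without active library 1 (0.0634) or inactive library 1 (0.0861). Slc4a4, a sodium bicarbonate cotransporter, stood out with 286, 311 and 262 in the active line, against 119, 124 and 134 in the inactive line (log2 fold change 1.18 ± 0.09 SE). Tmprss11f, a membrane serine protease, had a region 1615 bp from its start site with a log2 fold change of 0.47. A region 1197 bp upstream of Cenpc1 did not follow the rest, at 98, 99 and 94 in the active line, against 92, 110 and 94 in the inactive line, which overlap (log2 fold change -0.02).

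**Figure D3:**
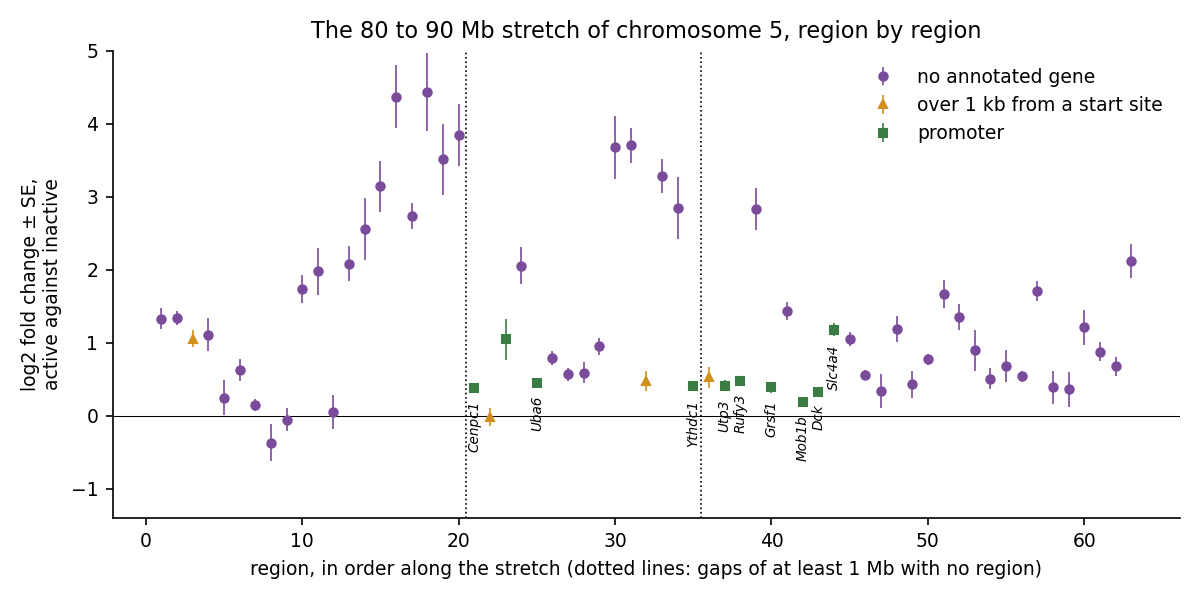
Log2 fold change ± SE (active against inactive) of the 63 regions from 80 to 90 Mb in their order along the chromosome, with promoters as squares (named where the gene has a symbol), regions farther than 1 kb from a start site as triangles and regions without an annotated gene as circles. The promoters lie low and close together, between 0.18 and 1.18, while regions without a gene reach 4.44.

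A second sparse interval, 55 to 60 Mb, held 8 regions, all higher in the active line, where 30.9% of all regions were. Their median log2 fold change was 1.62. It was taken up here after its values were seen. Both promoter regions and 2 further regions of Pcdh7, a protocadherin of cell adhesion, were among them. Its promoter region at 57875312 to 57875962 stood at 90, 150 and 96 in the active line, against 33, 43 and 37 in the inactive line. The region at 58757220, which lies 466.8 kb beyond the gene, stood at 75, 72 and 72 in the active line, against 7, 5 and 3 in the inactive line. The groups did not overlap at the promoter region. The region at 58757220 had an inactive mean of 5 and passed the limit only through the active line. Centred on the levels of windows of 5 Mb in place of 10 Mb, the Pcdh7 promoter was called lower than its neighbourhood (-0.72, limma adjusted p = 0.00172). That window holds these 8 regions alone. The promoter's plain log2 fold change of 1.52 lay close to their median of 1.62, so the value reflects centring on levels and not on changes.

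Departures of single regions from their surroundings were measured after the local difference had been taken off. The measure first planned subtracted, in each library, the median level of the 10 Mb window, and it called 708 chromosome 5 regions higher than their surroundings (23.4%, against 22.2% of all regions) and 905 lower (29.9%, against 32.1%). A difference between medians of levels is not the median difference, and the amount it took off differed from the median log2 fold change of the window by -0.09 to 0.31. Centring on the changes themselves, chosen after the data were seen, called 831 higher (27.5%, against 26.7%) and 697 lower (23%, against 24.3%). Centring on the 20 nearest promoters, likewise chosen later, called 918 higher (30.3%, against 29.3%) and 560 lower (18.5%, against 19%). By each measure the shares on chromosome 5 lay near those of the whole table. Departures below are those centred on the changes of the window. Promoters departed upward in 103 of 735 cases (14%, against 13.8% of all promoters in the table) and downward in 169 (23%, against 25%), shares that lay near those of the table. In the stretch from 80 to 90 Mb, where the window median is set by regions outside promoters, 8 of 10 promoters lay below it.

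Sod3, the extracellular superoxide dismutase, had the largest departure among the 24 genes ranked, 12 each way, from regions at or above the median level of the table, and it ran against the chromosome. Its promoter region, at 52520718 to 52521357 and covering the start site, stood at 5, 12 and 7 in the active line, against 148, 139 and 151 in the inactive line. The groups were far apart, an 18.25-fold lower mean in the active line (log2 fold change -4.10 ± 0.22 SE, departure -4.39, limma adjusted p = 1.11e-18). Its neighbours moved with it: 6 regions in a row over 39.4 kb summed to 29.3 ± 7.57 in the active line, against 417 ± 25.2 in the inactive line. The loss stopped there, since the next region on the proximal side, 146.8 kb away, stood at 81, 65 and 64 in the active line, against 67, 71 and 75 in the inactive line, and Dhx15, an RNA helicase gene farther out, had a log2 fold change of 0.23, as the window did.

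Cacna2d1, an auxiliary subunit of voltage-gated calcium channels, had the largest upward departure among these 24. Its promoter region, at 16139383 to 16140283, stood at 115, 122 and 129 in the active line, against 11, 6 and 5 in the inactive line. That is 122 ± 7 in the active line, against 7.33 ± 3.21 in the inactive line (SD, n = 3 each), a 16.6-fold higher mean (log2 fold change 3.95 ± 0.23 SE), in a window whose median was 0.13 (departure 3.82, limma adjusted p = 7.74e-17). A region 66.2 kb away, inside the gene, stood at 79, 85 and 86 in the active line, against 3, 2 and 6 in the inactive line. The next, 122.2 kb away and likewise inside the gene, stood at 21, 21 and 25 in the active line, against 1, 1 and 0 in the inactive line, so that all 3 regions at the start of this gene were low in the inactive line.

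Baiap2l1, which encodes a protein that bends membranes and binds actin, changed at its promoter and on both sides of it. The promoter, whose sequence is shown above, stood at 588, 636 and 643 in the active line, against 65, 65 and 76 in the inactive line, in a window with a median of 0.33 (departure 2.82, limma adjusted p = 1.37e-25). A region 14.1 kb upstream stood at 175, 201 and 189 in the active line, against 17, 18 and 15 in the inactive line. A region 70.7 kb into the gene stood at 50, 55 and 81 in the active line, against 9, 12 and 12 in the inactive line. Other regions inside the gene changed less, with log2 fold changes of 1.54, 0.79 and -0.005 at 39.8, 40.5 and 90.5 kb away. Beyond the gene, a region 102.6 kb away stood at 542, 560 and 561 in the active line, against 455, 430 and 437 in the inactive line, a log2 fold change of 0.33.

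**Figure D4:**
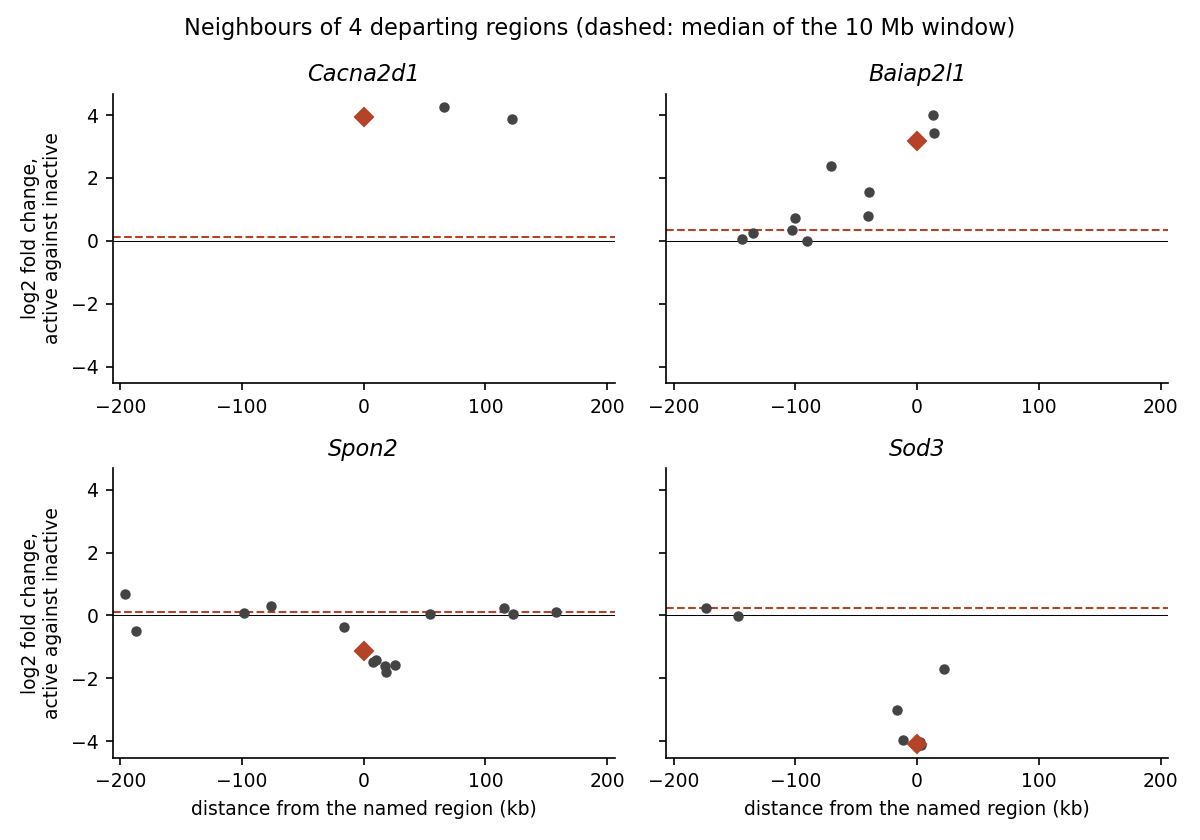
Log2 fold change (active against inactive) of regions within 200 kb of a named region (diamond at 0 kb; other regions as circles) for Cacna2d1, Baiap2l1, Spon2 and Sod3, with the median of the 10 Mb window as a dashed line. The nearest regions moved in the same direction as the named one. At Spon2 and Sod3 the regions beyond 50 kb lay between -0.51 and 0.68, while at Cacna2d1 both neighbours stood at 3.87 or above.

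Other upward departures lay at genes of varied function. Slc2a9, a transporter of urate, had a region 2285 bp upstream of its start site at 121, 102 and 113 in the active line, against 25, 22 and 26 in the inactive line (departure 2.03). Trim54, a muscle RING-finger protein, had a promoter at 121, 148 and 135 in the active line, against 34, 37 and 31 in the inactive line (1.83). Sh2b2, an adaptor of insulin receptor signalling, had 138, 129 and 126 in the active line, against 28, 35 and 24 in the inactive line (1.86). The groups were apart at all 3, as the choice of large departures largely set in advance. Slc35f6 (1.61), Pcdh7 (1.23), Elfn1, a synaptic adhesion protein (1.09), Hectd4 (1.05), Ssc4d (0.999), Tex26 (0.97) and Acad12, of the acyl-CoA dehydrogenase family (0.85), completed the 12 highest by the planned measure.

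Apart from Sod3, the downward departures among these 24 reached -1.96. Cdk14, a kinase that acts in Wnt signalling, had a region 3701 bp upstream at 56, 46 and 41 in the active line, against 141, 160 and 142 in the inactive line (departure -1.96). Tmem184a had a promoter at 63, 67 and 66 in the active line, against 143, 144 and 160 in the inactive line (-1.47). Stag3, a cohesin subunit of meiosis, had a promoter at 130, 157 and 149 in the active line, against 281, 295 and 279 in the inactive line (-1.27). All 3 went against a chromosome that was mostly higher. Their groups did not overlap, which the choice of large departures largely set in advance. Pitpnm2, a phosphatidylinositol transfer protein (-1.28), Spon2, a secreted matrix protein (-1.25), Emilin1, an elastic fibre glycoprotein (-1.06, at a region 2705 bp into the gene), and Wdr95 (-1.05) were lower in the plain comparison too.

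Some downward departures belonged to regions with little plain difference in a neighbourhood that was higher. Rasl11b, a small GTPase, had a promoter at 72, 97 and 105 in the active line, against 127, 113 and 94 in the inactive line, which overlap. Its plain log2 fold change of -0.29 did not pass (limma adjusted p = 0.0581), but its departure of -0.75 did (limma adjusted p = 1.34e-05). The upstream region of Cenpc1 given above had a departure of -0.97 with a plain value of -0.02. The promoter of Actb, the other cytoplasmic actin, stood at 840, 721 and 701 in the active line, against 762, 770 and 765 in the inactive line and did not pass in the plain comparison (-0.03, limma adjusted p = 0.691). Its departure was -0.37 (limma adjusted p = 7.02e-07), and with a running median as the local reference it was -0.16 and did not pass (adjusted p = 0.17). Scfd2 (-0.79) and Gtf2ird1, a transcription factor of the Williams syndrome region (-0.80), were called lower in both comparisons, with plain values of -0.34 and -0.51.

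**Figure D5:**
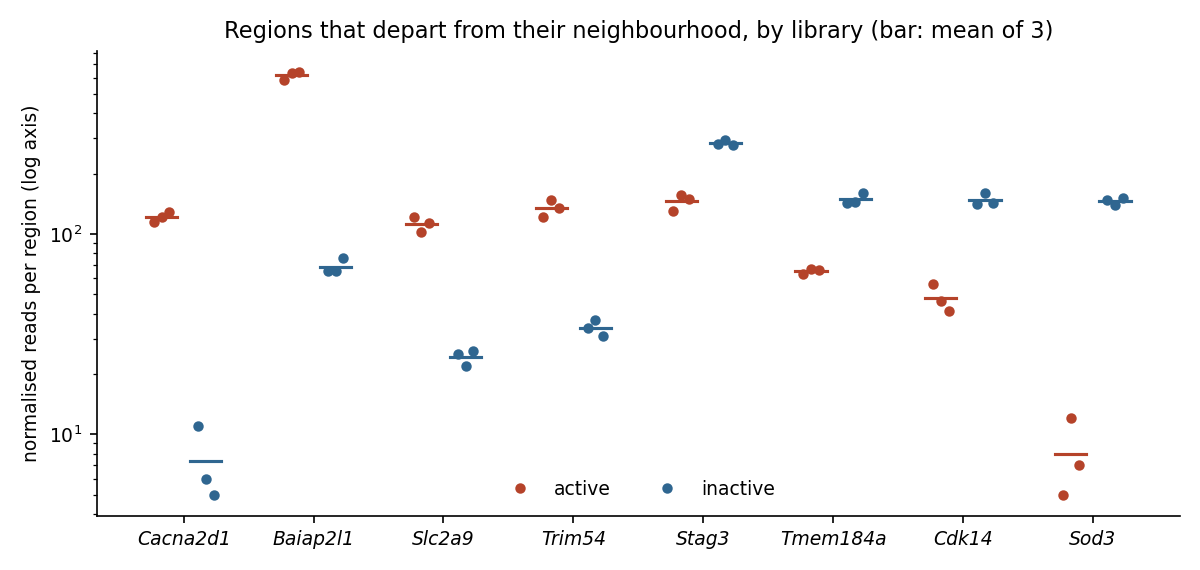
Normalised reads per region (log axis) in each library for 4 regions above and 4 below their neighbourhood, with active libraries in red on the left of each pair, inactive ones in blue on the right, and bars at the mean of 3. Active and inactive points do not overlap for any of the 8, from 115 to 129 against 5 to 11 at Cacna2d1 to 5 to 12 against 139 to 151 at Sod3. The 8 were picked as large called departures, which largely set this in advance. Of all regions, 31.8% had all active libraries above all inactive ones and 30.5% below.

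The 24 named genes departed by -4.39 to 3.82. Regions with no annotated gene, 4 each way by the planned measure, departed by -2.03 to 3.54. The one at 113034560 to 113035092, inside the gene body of Myo18b, stood at 160, 148 and 159 in the active line, against 10, 10 and 9 in the inactive line, a 16.1-fold higher mean. The one at 34189683 stood at 138, 140 and 147 in the active line, against 16, 10 and 18 in the inactive line. The one at 115990339, inside the gene body of Cit, a kinase of cytokinesis, stood at 187, 217 and 193 in the active line, against 25, 25 and 26 in the inactive line. None of these groups overlapped, which was likewise largely set by the choice of large departures. In the other direction, a region at 39014961 stood at 53, 55 and 67 in the active line, against 199, 247 and 219 in the inactive line, and one at 33395160, near Spon2, stood at 73, 72 and 93 in the active line, against 233, 241 and 256 in the inactive line. Regions at 143618858, inside Cyth3, and at 39801778 were lower as well, with log2 fold changes of -1.18 and -1.51.

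Some departing regions stood in rows. Runs of at least 4 consecutive regions called in the same direction after centring numbered 38 upward and 23 downward. They held 205 of the 831 regions called upward (24.7%, against 26% in the whole table) and 118 of the 697 called downward (16.9%, against 18.2%), shares near those of the table. The longest was downward, 13 regions over 1150 kb from 38768487 to 39919773, which summed to 208, 205 and 238 in the active line, against 799, 802 and 804 in the inactive line. The only gene of the table in that run was Zfp518b, a zinc-finger protein gene, whose promoter stood at 5, 11 and 10 in the active line, against 56, 46 and 65 in the inactive line. The run lies just distal of the upward region of Slc2a9. Near Spon2, 7 regions from 33361033 to 33403527 summed to 264 ± 14.7 in the active line, against 647 ± 34.6 in the inactive line.

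The longest upward run, 10 regions from 148499525 to 148740147, summed to 1036 ± 48.1 in the active line, against 423 ± 14.2 in the inactive line and touched no gene of the table. A run of 8 regions from 76082353 to 76151384 held the promoter of Kdr, the receptor for vascular endothelial growth factor, and summed to 905 ± 21.9 in the active line, against 384 ± 19.7 in the inactive line. A run of 7 from 102931355 to 103417504, which reaches Arhgap24, a GTPase-activating protein gene, summed to 928 ± 40.5 in the active line, against 167 ± 3.21 in the inactive line. In all 3 the sums of the groups were apart by many times their SD. The runs were defined on the same changes that they describe, and no test is attached to them.

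A small share of regions was open in 1 line and near closed in the other. Those with an inactive mean under 5 and an active mean of at least 20 numbered 44 (1.45%, against 1.85% of all regions), of which 3 were promoters. Lrrc17 had a promoter at 36, 30 and 25 in the active line, against 0, 2 and 0 in the inactive line, and Rnf32 one at 63, 76 and 80 in the active line, against 1, 4 and 8 in the inactive line. The reverse, an active mean under 5 and an inactive mean of at least 20, held for 10 regions (0.33%, against 0.394%). Among them was a region 4652 bp from the start site of Cmklr1, the chemerin receptor, at 4, 0 and 7 in the active line, against 18, 20 and 26 in the inactive line. At levels this low in the shallower active libraries a few reads decide the value.

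Gene groups with members on chromosome 5 had median log2 fold changes between 0.16 and 0.41, around the chromosome's 0.29 and above the -0.02 of all regions. The shares called are set beside 30.9% higher and 29.2% lower in the whole table, and 53.4% and 9.98% on chromosome 5. In groups of 4 to 31 regions, 1 region moves a share by several points. Of receptor tyrosine kinase and axon guidance genes, 13 genes with 19 regions were measured, and 8 regions (42.1%) were higher, 2 (10.5%) lower and the others not called, with a median of 0.26. Kdr had by far the largest change, with a promoter at 81, 74 and 82 in the active line, against 6, 5 and 9 in the inactive line (log2 fold change 3.42). Btc, a ligand of the epidermal growth factor receptor family (0.91), and Fgfr3, a fibroblast growth factor receptor (0.86), were higher. Sema3a, a secreted guidance cue, was lower at its promoter, at 15, 7 and 9 in the active line, against 25, 23 and 30 in the inactive line (-1.31).

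Chemokine and cytokine genes had 13 regions at 10 genes, of which 6 (46.2%) were higher and 1 (7.69%) lower (median 0.41). P2rx4, a channel gated by ATP, had a promoter at 387, 442 and 384 in the active line, against 242, 274 and 271 in the inactive line (0.62). Cxcl2 (0.84) and Cxcl11 (0.54) were higher at regions 2995 and 3895 bp from their start sites. P2rx7, a related channel, was called at a low region (1.07, limma adjusted p = 0.00896) but not with quantile normalization (adjusted p = 0.0604) or without active library 1 (0.0773). Matrix genes had 13 regions at 8 genes, with 7 (53.8%) higher and 1 (7.69%) lower (median 0.26). Sgcb, a subunit of the sarcoglycan complex (0.62), and Spp1, osteopontin (0.60), were higher at their promoters. Emilin1 had regions on both sides of its start site that moved apart (-0.93 in the gene and 0.73 upstream), while its promoter did not pass (-0.05, limma adjusted p = 0.577).

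Actin and cell shape genes had 20 regions at 15 genes, of which 13 (65%) were higher and 2 (10%) lower (median 0.22). Besides Baiap2l1, these were modest: Limk1, a kinase that regulates cofilin, had a promoter at 1188, 1133 and 1161 in the active line, against 851, 885 and 839 in the inactive line (0.44). Coro1c, a coronin, was higher at a region 1513 bp from its start site (0.65), and Actb at one 3230 bp from its start site (0.64), where its promoter was not. After centring, 3 regions of this group (15%, against 26.7% of all regions and 13.8% of all promoters) stood above their neighbourhood. Below it stood 6 (30%, against 24.3% of all regions and 25% of all promoters), and 13 of the 20 were promoters. Cell cycle, replication and repair genes had 31 regions at 26 genes, with 15 (48.4%) higher and 1 (3.23%) lower and a median of 0.16. After centring, 3 of them (9.68%, against 26.7% of all regions and 13.8% of all promoters) stood above their neighbourhood. Below it stood 10 (32.3%, against 24.3% of all regions and 25% of all promoters), and 27 of the 31 were promoters. Rfc5, a clamp loader subunit (0.51), Ccng2, a cyclin (0.47), and Anapc4, of the anaphase-promoting complex (0.44), were higher at their promoters, and the 1 lower region was that of Cdk14.

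The smaller groups held single strong changes. Among patterning transcription factors, with 6 regions at 3 genes, 4 (66.7%) were higher and 1 (16.7%) lower (median 0.23). Prdm8 had a promoter at 52, 46 and 56 in the active line, against 9, 6 and 6 in the inactive line (2.73). Mafk, a small Maf protein, had regions that moved both ways, 0.80 at one 3617 bp from its start site and -0.43 at one 2004 bp away; the second did not pass without inactive library 3 (limma adjusted p = 0.11). Of 8 regions at 6 Wnt and BMP genes, 2 (25%) were higher, Bmp2k (0.47) among them, and 1 (12.5%), the same region of Cdk14, was lower (median 0.16). Of 4 regions at 3 interferon response genes, 2 (50%) were higher and 1 (25%) lower (median 0.29). Trafd1, a regulator of innate signalling, was lower at a region 1661 bp from its start site, at 24, 30 and 28 in the active line, against 62, 53 and 73 in the inactive line, and higher at its promoter (0.40). Oasl1 (0.46, limma adjusted p = 0.0159) was not called without trend and robust settings, with quantile normalization, or without active library 2 or 3 or inactive library 3 (adjusted p from 0.0528 to 0.103).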

How the data were processed

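ATAC-seq libraries with an active ribozyme (3) were compared with those with an inactive one (3), grouped by the labels' titles. DESeq2 1.36.0, featureCounts, Picard 3.1.1, STAR 2.7.11a and Trimmomatic 0.39 were used on build mm39, per the submitters' processing notes. For the peak caller, the merging of peaks and any Tn5 shift, the step is not given in the sources used here. The deposited values are a score: whole numbers that look like region read totals that the authors divided by library size factors and rounded, as their near-equal totals and the whole numbers that never occur in some libraries show. The unrounded reads were not recovered, so no count model was used. The factors, and from them the reads before scaling, were estimated from the skipped whole numbers. The deposited distances from a region's centre to a start site are in base pairs.

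The test was limma 3.58.1 (R 4.3.3), run on log2(value + 1) with trend and robust empirical Bayes settings and no covariate, over all 51253 regions with a mean of at least 10, with Benjamini-Hochberg adjustment at 0.05. Fold changes given as a fold are ratios of group means. The same fit was run after centring each library on its 10 Mb window. Fits were tested on simulated data. Tables were handled with Python 3.11.15, numpy 2.4.6, pandas 2.3.3 and scipy 1.17.1 and plotted with matplotlib 3.10.9. Gene positions are those of the deposited table, so a gene without a region there was not used here.

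The members, gene lists and tests were chosen with earlier results of these data known. Named genes are, 1 region per gene, the 12 highest and 12 lowest planned centred log2 fold changes among called regions with a symbol and a mean of at least 61.5, the median of all regions. Added to these are 4 regions without a gene each way, every region with a symbol from 80 to 90 Mb, up to 4 members of each list, and Actb. The alternatives were other pseudocounts, filters, scaling, limma settings and local references, a replicate block, and leaving out each library.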

Additional observations from a re-analysis of the deposited data

How the results depend on the processing

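The upward shift of chromosome 5 held under every alternative run, with 1362 to 1645 of the regions higher and a median log2 fold change of 0.26 to 0.30, except that a mean of at least 50 left fewer regions to test. It gave 1087 higher, 148 lower and a median of 0.2655, and quantile normalization gave a median of 0.2613. Leaving out 1 library gave 1478 to 1571 regions higher, 250 to 297 lower and a median of 0.2808 to 0.296. Centred on the window, 620 to 653 were higher and 746 to 889 lower when 1 library was left out. The split of the centred calls depended on the local reference: 708 higher and 905 lower by window levels, 831 and 697 by window changes, and 918 and 560 by the nearest promoters, the last pair of references chosen after seeing the data. With a mean of at least 50, 438 were higher and 395 lower.

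All 32 named departing regions held their direction and call under the 17 alternatives, except the Pcdh7 promoter with windows of 5 Mb (-0.7221). These 32 were chosen as large, called departures by the planned measure, and most alternatives reran that measure. Their agreement was therefore largely set in advance. Within the stretch from 80 to 90 Mb, 6 of the 8 promoters below the window median lay above the nearest promoters by small, uncalled amounts: 0.0172 at Cenpc1, 0.1067 at Uba6, 0.0575 at Ythdc1, 0.047 at Utp3, 0.1177 at Rufy3 and 0.0222 at Grsf1, and also 0.1175 at the Tmprss11f region. The other two stayed below, Dck at -0.0239, not called, and Mob1b at -0.1789, still called lower (limma adjusted p = 0.0219). Centred on the levels of the window, Adgrl3 stood at 0.063 and Slc4a4 at 0.187, neither of them called. By that measure Adgrl3 turned to -0.1853 with no filter on low values and to -0.1209 with windows of 5 Mb, and Slc4a4 to -0.0615 with no filter. These centred values of Adgrl3 and Slc4a4 were not called either, and the cause was not tested. Their plain log2 fold changes with no filter stayed at 1.06 and 1.18. With 1 library left out, the plain value ranged from -0.1069 to 0.0235 at the Actb promoter and from -0.0678 to 0.0598 at the upstream region of Cenpc1.

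Equal replicate numbers did not pair the libraries: their deviations correlated between -0.0162 and 0.00137. A replicate block gave 1614 higher and 299 lower, and 701 higher and 884 lower after centring. The lower depth of the active libraries limits what can be said of regions near the limit of 10.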
